A study of Mus musculus with 6 samples.

Results

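The genes described here are 9 small leucine-rich proteoglycan genes, Dcn, Bgn, Aspn, Lum, Fmod, Kera, Prelp, Omd and Ogn, together with Dpt, the gene of dermatopontin. They were chosen by name, with earlier results of these data known, as every probeset whose single annotated gene symbol was one of these 10. Each had 1 probeset, among 19288 genes and 26851 probesets on the arrays. Mouse embryonic fibroblasts in culture had been profiled on 6 Affymetrix arrays, 3 with a hairpin labelled shARF and 3 with a control hairpin labelled shSCR. All 6 titles carry the word Ras, and the series title calls the cells dp53R, a name the sources used here do not spell out. A short hairpin RNA is expressed from a vector and directs the loss of a matching messenger RNA; ARF, a tumour suppressor, is 1 product of Cdkn2a. The design asks which transcripts change with less ARF. The arrays of a group are called biological replicates in the labels, with no word on separate cultures, animals or clones, so the p-values reflect only the spread among these samples, and that spread may be technical.

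Small leucine-rich proteoglycans are secreted proteins with a horseshoe-shaped core of leucine-rich repeats. They bind collagen fibrils, set fibril diameter and spacing, and several also bind growth factors and cell-surface receptors. Class I members such as decorin and biglycan usually carry chondroitin or dermatan sulfate chains, and class II members such as lumican and fibromodulin can carry keratan sulfate. Dermatopontin is a small tyrosine-rich matrix protein of connective tissue. It belongs to another family, binds decorin and promotes collagen fibril formation. Fibroblasts are a main source of these proteins in skin, tendon and other connective tissues.

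The hairpin's target and the cell type were checked first. Cdkn2a gave a signal of 315, 254 and 286 on the shARF arrays, against 535, 539 and 516 on the shSCR arrays, and fell by 0.90 ± 0.086 (SE) on the log2 scale (limma, adjusted p = 0.00459). Cdkn2a also encodes p16INK4a, and which of its transcripts the probeset reads was not tested. All 11 fibroblast markers examined were above the detection level on at least 3 arrays, and 0 of them passed the test (limma). Unadjusted p-values under 0.05 were seen for 5 of the 11, 1 higher and 4 lower in shARF, against 22.2% of all genes tested, and SAM (significance analysis of microarrays) called 1 lower. Detection was set at each array's 25th percentile, a signal of 14.1 to 14.9. This level is a rank among the deposited probesets, from which the authors had dropped those absent on every array. A gene below it is therefore not shown to be absent. The leukocyte genes Ptprc, Csf1r, Adgre1 and Itgam, the endothelial genes Tek and Emcn, the epithelial cadherin gene Cdh1 and the adipocyte gene Adipoq did not reach the detection level on any array. Other genes of the same lists did so on at least 3 arrays, namely Cd68 and Cd14, Pecam1, Cdh5 and Kdr, Epcam, Krt5, Krt8, Krt14 and Krt18, and Fabp4, Lpl, Pparg, Plin1 and Cidec. The brightest of them, Krt18 and Fabp4, had a signal of 189.6 to 317 and 193 to 265 in shARF, against 116 to 136 and 199 to 207 in shSCR. Array medians were 41.97 to 42.86 in shARF and 42.3 to 42.5 in shSCR. With 3 arrays per group, their number sets the precision.

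Lumican and dermatopontin transcripts rose in shARF cells, each more than 2-fold. Decorin was also higher on every shARF array without passing the test. Fibromodulin had the lowest difference of the family, with overlapping groups and again without passing. The others tested, biglycan, asporin, PRELP, osteomodulin and osteoglycin, had overlapping groups too. Of the 10 genes, 9 exceeded the detection level on at least 3 arrays and were tested, and 2 of these passed, both higher in shARF. Across all 15145 genes tested, 4.01% passed in either direction, 1.62% higher and 2.38% lower in shARF (limma, adjusted p under 0.05). Before adjustment 4 of the 9 had a p under 0.05, against 22.2% of all genes, and SAM called 4 of the 9, against 6.58% of all genes. Over the 9 tested genes 4 differences were positive and 5 negative, and their median log2 difference was -0.03, against -0.01 over all genes tested. The median size of a difference, whatever its sign, was 0.27 for the 9 and 0.10 for all genes. Because the 10 genes were chosen with earlier results of these data known, shares and sizes above those of all genes may follow from that choice. The 3 arrays of each group stood apart for 3 of the 9, Lum, Dcn and Dpt, all higher in shARF, where 28.6% of all tested genes stood apart, 12% higher and 16.6% lower in shARF.

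**Figure D1:**
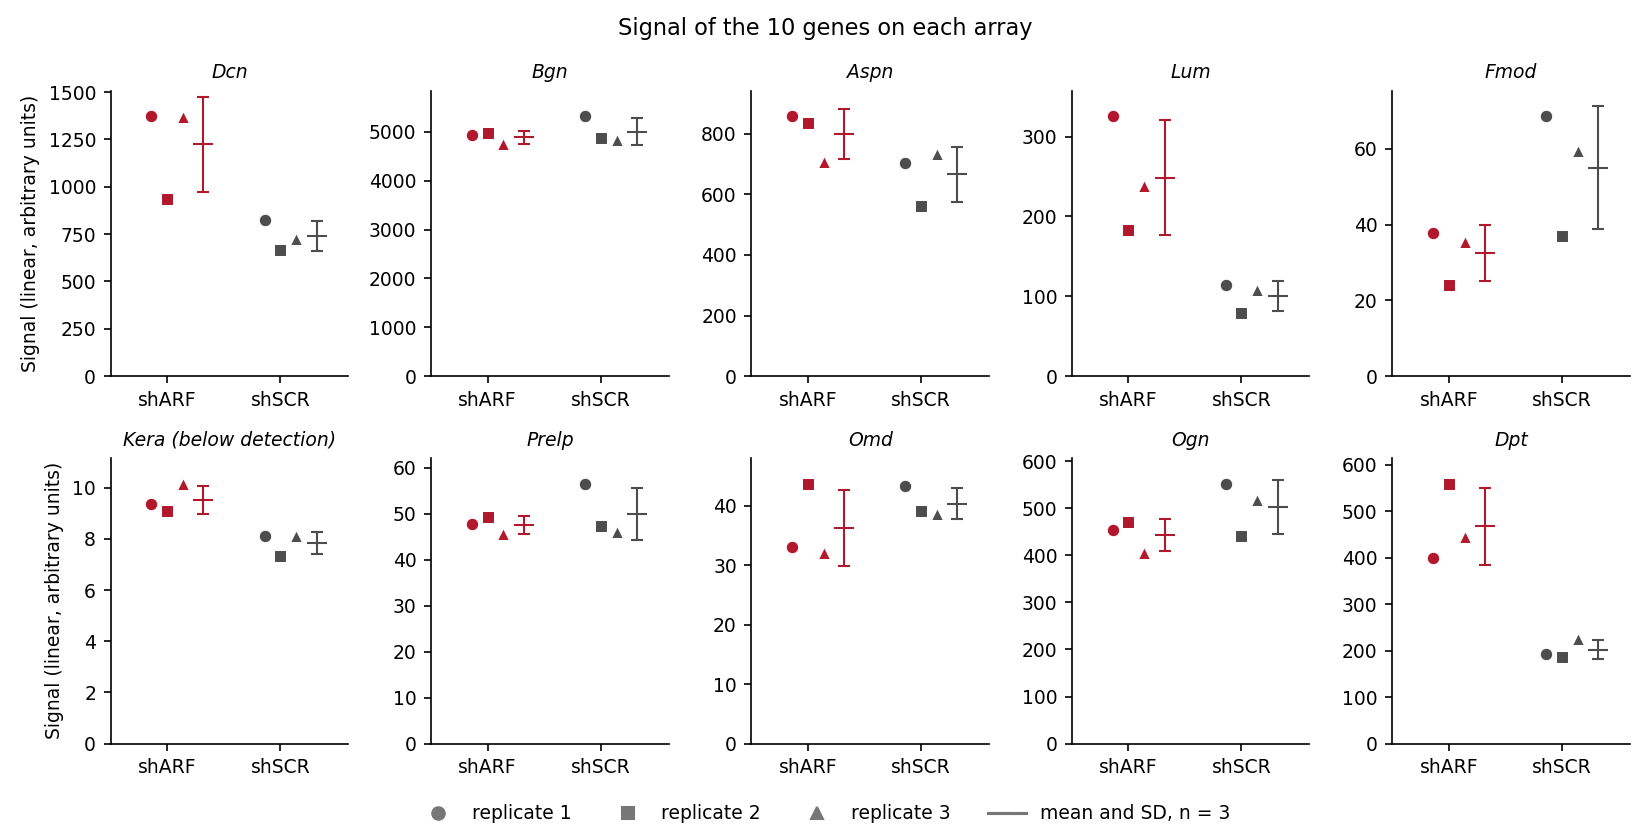
Linear signal of each of the 10 genes on each array (vertical axis, arbitrary units, a separate scale from 0 in each panel), with shARF on the left and shSCR on the right. Markers are single arrays and the bar is the mean with its SD (n = 3). Among the tested genes the shARF arrays lie above all shSCR arrays for Dcn, Lum and Dpt, and Kera lies below the detection level of 14.1 to 14.9 on all 6 arrays.

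Of the class I genes decorin had the largest difference between the groups and biglycan the smallest. Dcn encodes decorin, a collagen-binding proteoglycan that also binds transforming growth factor beta. Its signal was 1371, 935 and 1366 on shARF replicates 1, 2 and 3, against 827, 668 and 727 on shSCR replicates 1, 2 and 3. The lowest shARF array stood above the highest shSCR array. The mean was 1224 ± 251 in shARF and 740 ± 80.7 in shSCR (SD, n = 3 each), a difference of 0.71 ± 0.160 (SE) on the log2 scale with a 95% interval of 0.33 to 1.08. That is a 1.63-fold ratio, and it did not pass over all genes (limma, adjusted p = 0.0625). The same test on the same 6 arrays with an added constant of 16 before the logarithm, one of the other settings tried, gave an adjusted p of 0.0258 (limma). Over the other settings tried the adjusted p ran between 0.00771 and 0.0899, and over the 6 single-array omissions between 0.0198 and 0.170 (limma or SAM). The call of Dcn therefore depends on the processing and on the arrays used.

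Bgn encodes biglycan, which like decorin binds collagen and growth factors and, when released, signals through Toll-like receptors. It measured 4939, 4981 and 4739.8 in shARF, against 5313, 4867 and 4823 in shSCR. The groups overlapped. The difference was -0.03 ± 0.064 (SE) on the log2 scale, with a 95% interval of -0.18 to 0.12, so the interval holds ratios of 0.880 to 1.09 (limma, adjusted p = 0.812).

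Aspn encodes asporin, a class I protein that binds collagen and carries a stretch of aspartate residues in place of a glycosaminoglycan attachment site. Its signal was 857, 836 and 706 in shARF, against 702, 563 and 733 in shSCR. The highest shSCR array exceeded the lowest shARF array, so the groups overlapped. The difference of 0.27 ± 0.121 (SE) on the log2 scale did not pass (limma, adjusted p = 0.268; 95% interval -0.02 to 0.55).

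The class II genes held the largest rise and the largest negative difference of the family. Lum encodes lumican, which regulates the assembly of collagen fibrils in cornea, skin and tendon. The probeset gave 325, 183 and 238 on shARF replicates 1, 2 and 3, against 115, 79.6 and 108 on shSCR replicates 1, 2 and 3. Every shARF array lay above every shSCR array, and replicate 2 was the lowest of both groups. The mean was 249 ± 71.7 in shARF and 101 ± 18.6 in shSCR (SD, n = 3 each). The log2 difference was 1.28 ± 0.221 (SE), a 2.43-fold rise with a 95% interval of 1.70-fold to 3.49-fold (limma, adjusted p = 0.0276). The call was lost on leaving out any 1 array other than shARF replicate 2, with log2 differences of 1.07 to 1.48 and adjusted p of 0.0281 to 0.0898 over the 6 omissions, and it held under all 11 other settings.

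Fmod encodes fibromodulin, a class II protein of tendon and cartilage that binds the same collagen site as lumican. Its signal was 37.8, 24.0 and 35.4 in shARF, against 68.5, 37.0 and 59.5 in shSCR. The highest shARF array, replicate 1, stood just above the lowest shSCR array, replicate 2. The mean was 32.4 ± 7.37 in shARF and 55.0 ± 16.2 in shSCR (SD, n = 3 each), a log2 difference of -0.74 ± 0.256 (SE) with a 95% interval of -1.34 to -0.14. It did not pass over all genes (limma, adjusted p = 0.165). Over the other settings tried the adjusted p ran between 0.0180 and 0.213, and over the single-array omissions between 0.0741 and 0.336 (limma or SAM).

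The groups overlapped for the other tested class II genes and for the class III gene, and none of these passed the test (limma). Prelp, whose protein PRELP links collagen to basement membranes, measured 47.7, 49.3 and 45.6 in shARF, against 56.4, 47.4 and 46.0 in shSCR. Omd encodes osteomodulin, also called osteoadherin, a keratan sulfate proteoglycan of bone, and measured 33.1, 43.7 and 32.2 in shARF, against 43.4, 39.1 and 38.6 in shSCR. The highest Prelp array was an shSCR array and the highest Omd array an shARF array. Their log2 differences were -0.07 ± 0.090 for Prelp and -0.17 ± 0.123 for Omd (SE; limma, adjusted p = 0.715 and 0.487), with 95% intervals of -0.28 to 0.14 and -0.45 to 0.12.

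Ogn encodes osteoglycin, also called mimecan, a class III protein first described in bone. It measured 454, 471 and 406 in shARF, against 551, 440.3 and 518 in shSCR. The groups overlapped, and the log2 difference was -0.18 ± 0.101 (SE; limma, adjusted p = 0.365; 95% interval -0.42 to 0.06). Kera encodes keratocan, a keratan sulfate proteoglycan best known from the corneal stroma. Its signal was 9.37, 9.09 and 10.2 in shARF, against 8.10, 7.34 and 8.11 in shSCR. All 6 values were below the detection level, so no fold is given.

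**Figure D2:**
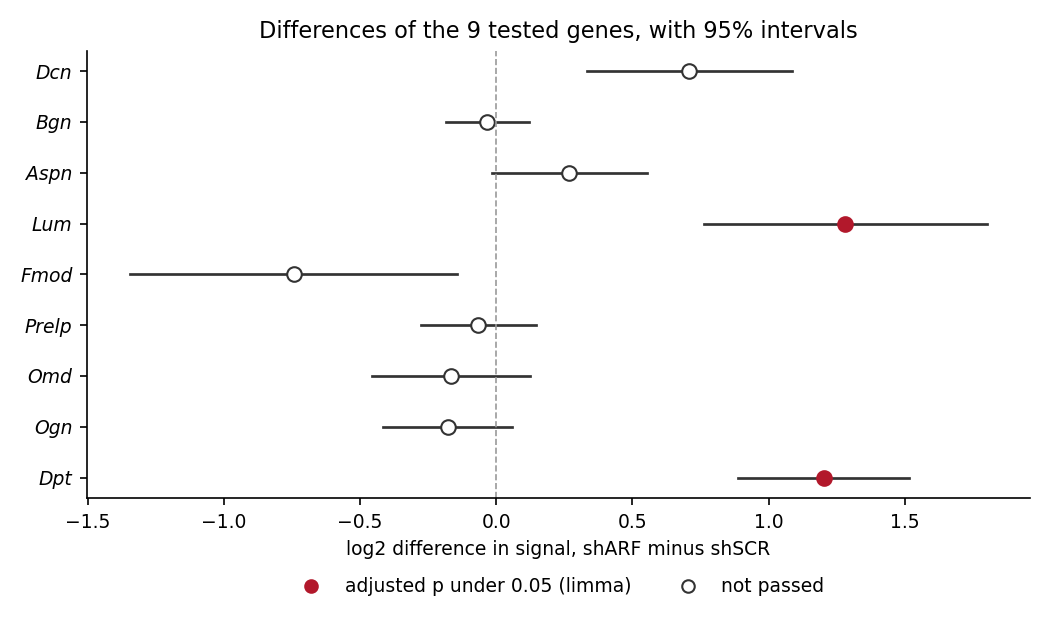
Difference in log2 signal, shARF minus shSCR (horizontal axis), for the 9 tested genes, in the order class I, class II, class III and dermatopontin from top to bottom. Points are limma estimates from 3 arrays per group, lines are 95% intervals, and filled points passed at an adjusted p under 0.05. Lum (1.28) and Dpt (1.20) are the filled points, and the intervals of Dcn (0.33 to 1.08) and Fmod (-1.34 to -0.14) also leave out 0 without correction for the number of genes.

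Dermatopontin showed the smallest p of the 9 tested genes. Dpt gave 399, 559 and 445 on shARF replicates 1, 2 and 3, against 194, 187 and 225 on shSCR replicates 1, 2 and 3. The lowest shARF array stood well above the highest shSCR array. The mean was 468 ± 82.4 in shARF and 202 ± 20.2 in shSCR (SD, n = 3 each), a log2 difference of 1.20 ± 0.133 (SE). This was a 2.30-fold rise with a 95% interval of 1.85-fold to 2.86-fold (limma, adjusted p = 0.00731). It was called on leaving out each of the 6 arrays in turn, with log2 differences of 1.07 to 1.31 and adjusted p of 0.0140 to 0.0396, and under the 11 other settings. Among all tested genes 46, or 0.304%, passed with a rise of at least 2-fold, and Lum and Dpt are 2 of them.

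The promoter windows of Dpt, which kept its call under every setting and every single-array omission, and of Fmod are shown side by side. Fmod had the most negative difference of the 9 tested genes and did not pass the main test (limma). The windows run from 250 bases before to 50 bases after the annotated start, on the plus strand, at chr1:164796413-164796712 for Dpt and chr1:134037004-134037303 for Fmod, both from RefSeq on GRCm38.p6. Capitals mark matches on either strand to TATAAA, the TATA box, and to CANNTG, the E-box bound by basic helix-loop-helix factors such as scleraxis and TWIST1.
Dpt: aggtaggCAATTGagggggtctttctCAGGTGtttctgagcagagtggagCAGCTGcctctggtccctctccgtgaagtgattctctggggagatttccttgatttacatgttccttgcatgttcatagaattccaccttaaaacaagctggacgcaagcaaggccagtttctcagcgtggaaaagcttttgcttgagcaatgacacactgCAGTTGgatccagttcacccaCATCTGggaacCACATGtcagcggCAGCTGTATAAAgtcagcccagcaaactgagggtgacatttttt
Fmod: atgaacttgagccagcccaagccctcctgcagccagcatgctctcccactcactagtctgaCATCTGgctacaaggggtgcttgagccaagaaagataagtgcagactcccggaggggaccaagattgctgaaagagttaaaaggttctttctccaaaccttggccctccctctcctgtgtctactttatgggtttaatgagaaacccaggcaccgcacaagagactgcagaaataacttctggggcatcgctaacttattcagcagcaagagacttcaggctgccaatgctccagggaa
The Dpt window held 7 E-box matches and 1 TATA match, which directly follows an E-box and begins at base 13 of the transcript. The Fmod window held 1 E-box match and 0 TATA matches. Among the other windows, Ogn held 4 E-box matches, Aspn 2, Bgn and Prelp 1 each, and Omd and Kera 0. A link between these counts and the differences was not tested. The interferon response repeat, the element bound by interferon regulatory factors, was searched too, on both strands. RefSeq windows were available for 8 of the 10 genes; Lum and Dcn had no entry in the table used. Of the 8, 6 held an E-box against 72.3% of all 32851 windows, 3 (Ogn, Aspn and Dpt) a TATA match against 13.6%, and 0 the interferon repeat against 3.44%. The TATA matches of Ogn begin at -229 and -227 from the start, and those of Aspn at -207 and -178. Whether any TATA match acts as a TATA box was not tested. A match is a description of letters, and the absence of one applies to this window only.

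Several of these genes lie side by side in the genome, and the differences of neighbours varied in sign or size. In the RefSeq gene table of GRCm38.p6, used for order only, Dcn, Lum, Kera and the epiphycan gene Epyc follow each other on chromosome 10 with 0 other protein-coding genes between them. In that row Lum rose and Dcn had a positive difference, while Kera and Epyc were below the detection level. Ecm2, Aspn, Omd and Ogn form an unbroken row on chromosome 13. There the differences were 0.27 for Aspn, -0.17 for Omd and -0.18 for Ogn, and Ecm2 was below the detection level. Optc, Prelp and Fmod form a row on chromosome 1, with differences of -0.12 for the opticin gene Optc, -0.07 for Prelp and -0.74 for Fmod, none of which passed (limma). Dpt lies elsewhere on chromosome 1 and Bgn on X.

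The arrays of a group were spread unevenly for some of these genes. Lum, Dcn and Fmod each had their lowest shARF value and their lowest shSCR value on replicate 2. For Lum the replicate 2 array lay 0.40 below the shARF mean and 0.32 below the shSCR mean on the log2 scale, and for Fmod 0.41 and 0.52 below. Dpt did not share this, since replicate 2 was its highest shARF array and its lowest shSCR array. Of the 9 tested genes 3 had replicate 2 lowest in both groups, which over all tested genes was the case for 9.94%, and another 3, Bgn, Omd and Prelp, had replicate 3 lowest in both, against 12.2% of all genes. When both replicate 2 arrays were left out, which was decided once these values had been seen, 4 of the 9 passed, Lum, Dcn and Dpt higher and Fmod lower in shARF (limma, adjusted p = 0.0399 for Dcn and 0.0490 for Fmod). Over all genes the same setting called 151, against 607 with all 6 arrays. The arrays left out were the lowest for Lum, Dcn and Fmod, so the added calls of Dcn and Fmod follow from that choice and are no support for them.

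**Figure D3:**
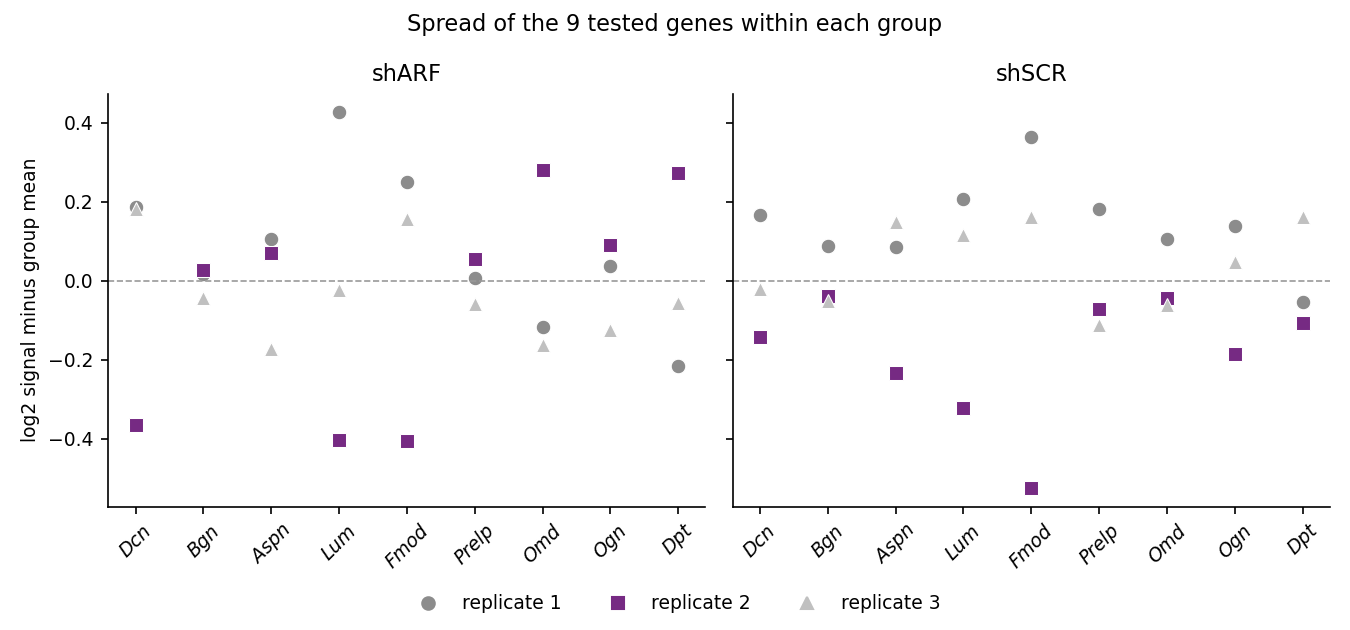
Log2 signal of each array minus the mean of its group (vertical axis) for the 9 tested genes, shARF on the left and shSCR on the right. Each marker is 1 array, and squares are replicate 2. Squares lie lowest in both panels for Dcn, Lum and Fmod, while for Dpt the square is the highest shARF point.

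Lumican and fibromodulin, which compete for one collagen site, and decorin and biglycan, the closest class I relatives, were also compared within each array. Both pairs were chosen after their values were seen. A ratio of probesets has no meaning as a level, because probesets differ in efficiency, and only its change between groups is read. The log2 ratio of Lum over Fmod was 3.11, 2.93 and 2.75 on the shARF arrays, against 0.74, 1.11 and 0.86 on the shSCR arrays. The groups did not overlap. The mean was 2.93 ± 0.178 in shARF and 0.90 ± 0.185 in shSCR (SD, n = 3 each), a difference of 2.03. This is the log2 difference of Lum less that of Fmod, genes picked for opposite differences, so it is a description and adds no evidence to theirs. An exact permutation test over the assignments of arrays to groups gave p = 0.1. That is the smallest p possible with 3 arrays per group, so the test could not pass.

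The log2 ratio of Dcn over Bgn was -1.85, -2.41 and -1.79 on the shARF arrays, against -2.68, -2.87 and -2.73 on the shSCR arrays. The groups did not overlap, and shARF replicate 2 stood apart from the other shARF arrays. The difference was 0.74, again the difference of the 2 genes' own values. The exact permutation test gave p = 0.1 here too and could not pass.

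**Figure D4:**
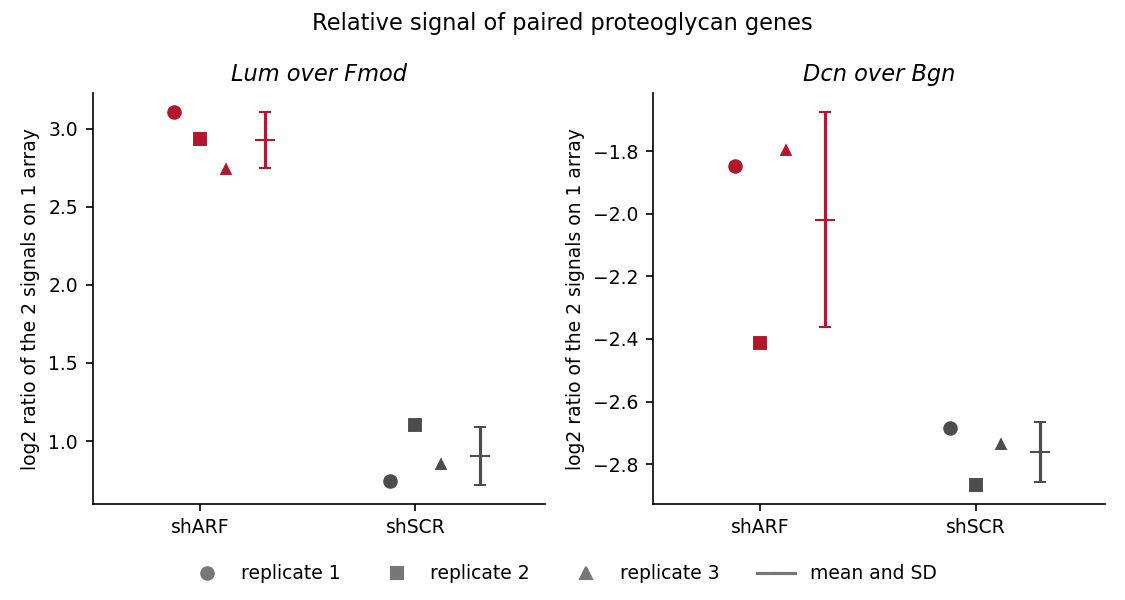
Log2 ratio of 2 signals on 1 array (vertical axis), Lum over Fmod on the left and Dcn over Bgn on the right, with shARF left of shSCR in each panel. Markers are arrays, bars are means with SD (n = 3), and the axes do not start at 0. The shARF arrays lie at 2.75 to 3.11 and the shSCR arrays at 0.74 to 1.11 for Lum over Fmod.

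Genes of the wider matrix machinery changed in small numbers, and each tested gene differed by less than Lum and Dpt on the log2 scale. Across 7 lists of 116 genes, 105 were tested and 8 passed, 5 higher and 3 lower in shARF, or 7.62% against 4.01% of all genes. These lists too were chosen with earlier results of these data known. With the arrays scaled to a common median 6 passed, 5 higher and 1 lower. The median difference over the 105 was -0.02 on the log2 scale. No other member of the proteoglycan family passed among 5 tested, Optc, Podn, Podnl1, Chad and Chadl (limma). Unadjusted, 1 of the 5 was lower at a p under 0.05 (limma), against 22.2% of all genes in either direction, and SAM called 0. Podnl1 differed by -0.27 ± 0.096 and Podn by 0.20 ± 0.090 on the log2 scale (SE; limma, adjusted p = 0.172 and 0.271). Epyc, Ecm2 and Nyx were below the detection level.

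The collagens that these proteins bind did not pass. Of 14 fibril-forming and fibril-associated collagen genes 0 passed limma's test, against 4.01% of all genes. An unadjusted p under 0.05 was seen for 3, all higher in shARF, against 22.2% of all genes in either direction (limma). SAM called 0, against 6.58% of all genes. Their median difference was -0.01 on the log2 scale, with a range of -0.16 to 0.30. Col5a1 and Col5a3, chains of the collagen that starts fibril assembly, had the smallest p, with 0.20 ± 0.074 and 0.18 ± 0.072 (SE; limma, adjusted p = 0.189 and 0.223). Of 20 genes of collagen processing and cross-linking 1 passed. Loxl3, a lysyl oxidase that cross-links collagen and elastin, fell to 498 ± 10.5 in shARF, against 635 ± 49.5 in shSCR (SD, n = 3 each; limma, adjusted p = 0.0494). Plod1, a lysyl hydroxylase, and Pcolce2, an enhancer of procollagen cleavage, differed by 0.27 ± 0.078 and -0.34 ± 0.105 and did not pass (SE; limma, adjusted p = 0.114 and 0.136).

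Log2 differences of the genes that build the sugar chains ran from -0.34 to 0.33 for chondroitin and dermatan sulfate and from -0.29 to 0.26 for keratan sulfate. Of 21 tested genes of chondroitin and dermatan sulfate synthesis 1 passed. Chst12, a chondroitin 4-sulfotransferase, fell to 241 ± 14.8 in shARF, against 305 ± 5.92 in shSCR (SD, n = 3 each; limma, adjusted p = 0.0402). Csgalnact1 and B3gat3, enzymes of chain start and linkage, differed by 0.26 ± 0.079 and 0.33 ± 0.103 and did not pass (SE; limma, adjusted p = 0.127 and 0.136). Of 7 genes of keratan sulfate synthesis 0 passed limma's test, against 4.01% of all genes. An unadjusted p under 0.05 was seen for 2, of which 1 was higher in shARF, against 22.2% of all genes (limma). SAM called 1 lower, against 6.58% of all genes in either direction. Chst1, the sulfotransferase that acts on the galactose of keratan sulfate, differed by -0.29 ± 0.063 (SE; limma, adjusted p = 0.0531), and Chst2 by 0.26 ± 0.089 (SE; limma, adjusted p = 0.164). The calls of Loxl3 and Chst12 were lost on leaving out any 1 array.

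Other proteoglycans and binding partners held the remaining calls. Of 15 large and cell-surface proteoglycan genes 2 rose. Cspg4, the transmembrane proteoglycan NG2, rose to 178 ± 3.40 in shARF, against 120 ± 9.01 in shSCR, and Gpc1, the cell-surface proteoglycan glypican 1, to 289.8 ± 26.5 in shARF, against 216 ± 13.5 in shSCR (SD, n = 3 each; limma, adjusted p = 0.00963 and 0.0477). Gpc6 and Agrn, the genes of glypican 6 and agrin, differed by -0.31 ± 0.079 and 0.70 ± 0.200 and did not pass (SE; limma, adjusted p = 0.0886 and 0.113).

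Of 23 genes of growth factors, receptors and matrix partners that bind members of the family, 3 rose and 1 fell. Bmp2, a bone morphogenetic protein, rose to 87.0 ± 19.7 in shARF, against 39.3 ± 8.30 in shSCR (SD, n = 3 each; limma, adjusted p = 0.0285), a log2 difference of 1.15 ± 0.199 (SE). Eln, the elastin gene, and Ccn4, which encodes the matricellular protein WISP1 that binds decorin and biglycan, rose by 0.51 and 0.40 on the log2 scale (limma, adjusted p = 0.0114 and 0.0395). Egfr, a receptor that decorin binds, fell by 0.32 on the log2 scale (limma, adjusted p = 0.0494). Tlr4, a receptor for soluble biglycan, differed by 0.38 ± 0.106, and Tgfbr3, the betaglycan gene, by -0.30 ± 0.084 (SE; limma, adjusted p = 0.108 for both). The calls of Ccn4 and Egfr were lost on leaving out any 1 array, Gpc1 kept its call only without shARF replicate 3, Bmp2 only without replicate 2 of either group, Eln lost its call without shSCR replicate 1 or 3, and Cspg4 without shSCR replicate 3.

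**Figure D5:**
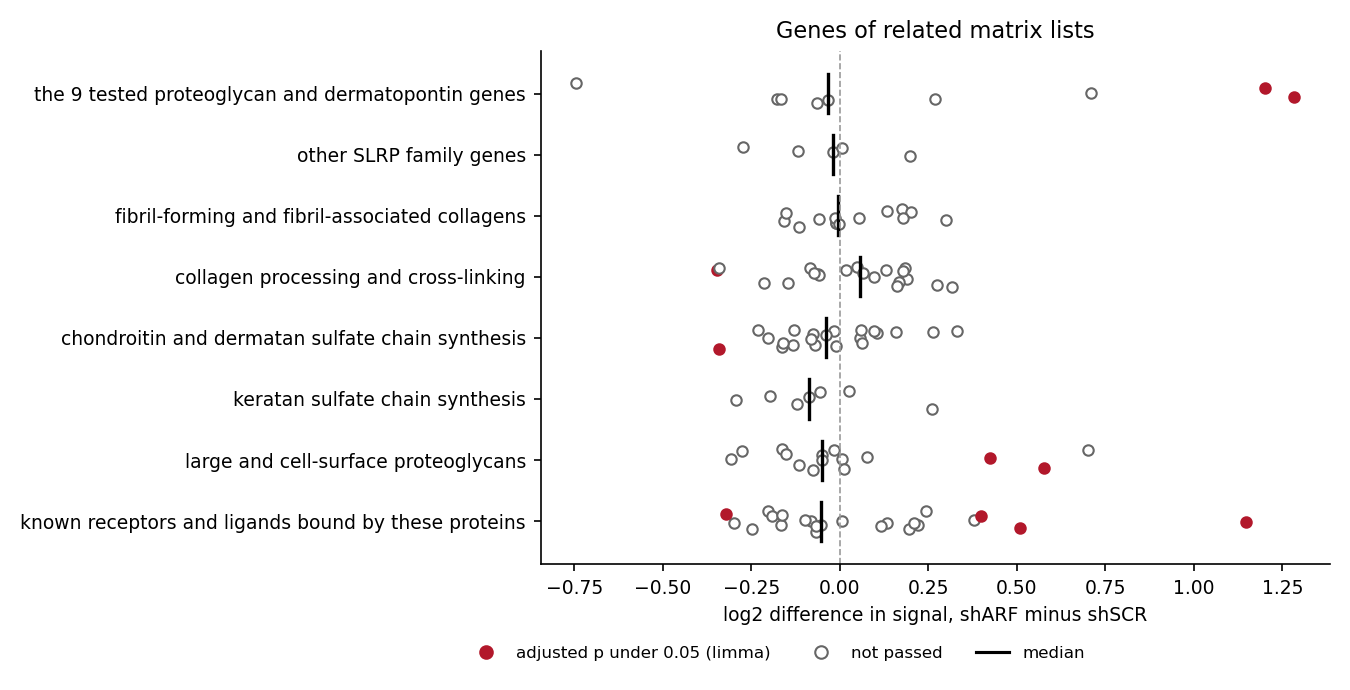
Difference in log2 signal, shARF minus shSCR (horizontal axis), of each tested gene in 8 sets, with the 9 proteoglycan and dermatopontin genes on top and 7 related lists below. Points are genes, filled where limma gave an adjusted p under 0.05, and black bars are medians. The medians lie between -0.09 and 0.06, and Lum, Dpt and Bmp2 are the filled points beyond 1.

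Some markers of other cell types moved with the groups. Of 4 tendon markers, the tendon transcription factor gene Scx rose by 0.64 ± 0.111 on the log2 scale and Tnmd, the tenomodulin gene, fell by 0.95 ± 0.168 (SE; limma, adjusted p = 0.0285 and 0.0309). The summed signal of the tendon list was 334 to 387 in shARF and 347 to 434 in shSCR, so it overlapped. Of 5 smooth muscle genes 3 fell, Cnn1, Tagln and Acta2, by 1.25, 0.41 and 0.28 on the log2 scale (limma, adjusted p = 0.00121, 0.0271 and 0.0491), and their list summed to 6567 to 7184 in shARF and 9099 to 9464 in shSCR. Before adjustment 4 of the 5 were lower at a p under 0.05 (limma), and SAM called 3 lower. Of 5 tested epithelial genes 1 rose, the keratin gene Krt18, by 0.93 ± 0.176 (SE; limma, adjusted p = 0.0370), with a list sum of 340.3 to 475 in shARF and 231 to 263 in shSCR and with Cdh1 below the detection level. All 5 epithelial differences were positive, 3 had an unadjusted p under 0.05 (limma), and SAM called 2 higher. Over all genes 22.2% had an unadjusted p under 0.05 (limma) in either direction, and SAM called 6.58%. Lists of cartilage and bone, adipocyte, macrophage and endothelial markers held 0 genes that passed among 15 tested (limma). Unadjusted, 2 of the 15 had a p under 0.05 (limma), against 22.2% of all genes, and SAM called 0, against 6.58%. Of the markers that passed, Cnn1 held on leaving out each array in turn, Scx, Tagln and Krt18 only on leaving out shARF replicate 2, Tnmd only on leaving out shSCR replicate 2, and Acta2 on none. Acta2 also lost its call with no filter and with median scaling, and Krt18 with no filter (limma, adjusted p = 0.0877, 0.0565 and 0.0541). The part of these shifts in the rises of Lum and Dpt was not tested. On bulk arrays, more cells of a type and more RNA per cell cannot be told apart.

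The genes whose values over the 6 arrays ran closest to those of Lum and of Dpt were found by the root mean square difference of log2 values centred on each gene's own mean. Nearest to Lum were Ccl8, a chemokine gene, Ly6g, a surface antigen gene, and Krt18, at 0.15, 0.18 and 0.20 on the log2 scale. Nearest to Dpt were Oas1a, of the interferon-induced oligoadenylate synthetases, Sulf2, an extracellular sulfatase of heparan sulfate, and Tap1, a peptide transporter of antigen presentation, at 0.15, 0.16 and 0.17. All 6 rose in shARF (limma), with log2 differences of 1.13 for Ccl8, 1.37 for Ly6g, 0.93 for Krt18, 1.07 for Oas1a, 1.01 for Sulf2 and 1.23 for Tap1. A likeness of this kind largely reflects a like difference between the groups. Probesets of Ly6g and Oas1a can read near-identical family members, so their values are uncertain, and Ccl8 was above the detection level on 2 of the 3 shSCR arrays.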

How the data were processed

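Gene expression was measured on 6 Affymetrix arrays. The deposited columns hold linear intensities, normalized by the authors with RMA (robust multi-array average) in Affymetrix Expression Console on core probesets, per the submitters' processing notes and the labels' series design text; version and genome build are not given in the sources used here. RMA quantile normalizes the arrays, which hides a shift shared by most genes, and its background step can compress folds of dim genes. Per the design text the authors also dropped control probesets and those absent on every array, and per the labels' protocols the RNA was amplified before hybridization. The design text names SAM, which was run as an alternative.

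The intensities were turned to log2, and probesets above the array's 25th percentile on at least 3 of 6 arrays were tested (20310 probesets, 15145 genes, each by its brightest probeset). The groups were set against each other in limma 3.58.1 under R 4.3.3 (two-sided moderated test from lmFit and eBayes, 4 residual and 3.28 prior degrees of freedom), with Benjamini-Hochberg adjustment over all tested probesets and a threshold of 0.05. Means and SDs are linear, while folds are differences of log2 means. The fit was tested on simulated data. Symbols came from the platform annotation (21056 probesets with 1 symbol, 1450 with several and 4345 with none, the last 2 kinds unnamed), and 0 symbols changed when matched to RefSeq. The 10 genes, the gene lists and markers were chosen with earlier results of these data known. The genes named are the 10, Cdkn2a, every listed gene or marker that passed, up to 2 further genes per related list with the smallest p, and the 3 nearest to each of the 10 that passed. Optc, and markers below detection, were named after their values were seen. The alternatives were 10 settings and 6 single-array omissions, plus the omission of both replicate 2 arrays, added after the data were seen.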

Additional observations from a re-analysis of the deposited data

How the results depend on the processing

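Dpt kept its call and direction under all 11 other settings and 6 omissions, and Lum under the 11 settings but not under 5 of the 6 omissions (log2 differences of 1.07 to 1.48). Dcn, which did not pass in the main test, passed under 7 of the 10 planned settings and without shARF replicate 2, and Fmod under 2 of its 9 (the strict filter removed it). Both also passed without both replicate 2 arrays, a choice made because those arrays were the lowest for them. The count of the 10 genes called, 2, was 4 with the replicate number as a block, 4 with SAM, 4 without both replicate 2 arrays and 1 to 3 on leaving out 1 array. The sign turned without shSCR replicate 1 for Bgn (0.012) and Prelp (0.025), whose log2 differences on leaving out 1 array ran between -0.058 and 0.012 and between -0.12 and 0.025; neither passed. The log2 difference of 2.03 for Lum over Fmod was 1.70 with 16 added before the logarithm.

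The count of all genes called, 607, was 372 without a filter, 996 with the strict filter, 978 with 16 added, 1239 with an intensity trend, 336 with the replicate block, 997 with SAM, 151 without both replicate 2 arrays and 149 to 333 on leaving out 1 array, lowest without shSCR replicate 3. The count of 8 related genes was 3 without a filter, 14 with an intensity trend, 4 with the replicate block, 1 without both replicate 2 arrays and 0 to 3 on leaving out 1 array, lowest without shSCR replicate 3. The strict filter and the omissions test other numbers of genes or arrays; for the other settings the cause was not tested.

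Same-numbered arrays deviated from their group means with correlations of 0.0778, 0.0518 and 0.000618 across probesets, which are not independent replicates, and only shARF replicate 1 correlated best with its own number, so the replicate numbers were not taken as pairs. With the block Dcn, Fmod and Agrn gained a call (limma, adjusted p = 0.0372 and 0.0180 for the first 2), and Ccn4, Chst12, Egfr, Gpc1, Loxl3, Scx, Tagln and Acta2 lost theirs (0.0793, 0.0897, 0.0914, 0.0641, 0.106, 0.0657, 0.0770 and 0.113). Dim genes such as Fmod and Omd are limited by signal over background, and Kera gives no fold.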
